A study of Drosophila melanogaster x Drosophila simulans and Drosophila melanogaster and Drosophila simulans with 186 samples.

Results

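The slices analysed here lie just behind the middle of hybrid Drosophila embryos, above 50% and at most 62.5% of the distance from the anterior to the posterior end. They were chosen by position alone, as the slice number minus 0.5 divided by the number of slices of that embryo, and no measured value entered the choice. The rule took 15 of the 132 hybrid slices (186 slices in the whole series), 3 from each of 5 embryos, at 51.9 to 62.0% of the length. Their working name is anterior abdomen, and the other 117 hybrid slices served as the comparison, each within its own embryo. They are called the region here.

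The trunk of the fly embryo is subdivided at the blastoderm stage by a short cascade of transcription factors. Gap genes such as Kruppel (Kr), knirps (kni), giant (gt) and hunchback (hb) are transcribed in broad bands, repress each other and place the stripes of the pair-rule genes, while the Hox genes Antennapedia (Antp), Ultrabithorax (Ubx) and abdominal-A (abd-A) begin to give the segments their identity. The posterior part of the Kr band, the anterior part of the abdominal kni band and the first Ubx transcripts are known to meet just behind the middle of the embryo.

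Each embryo was an F1 hybrid between the D. melanogaster strain DGRP-340 and the D. simulans strain w501, fixed in methanol at blastoderm cycle 14C, cryosliced along the anterior-posterior axis and sequenced slice by slice as poly-adenylated RNA. In 3 embryos the mother was D. melanogaster (melXsim) and in 2 it was D. simulans (simXmel), and 1 embryo of each parental strain (melXmel and simXsim) was sliced in the same way. Both sexes occur among the hybrids, and sex was not separated from embryo here. The values used were FPKM and allele-specific expression. FPKM is the number of fragments of a gene scaled to its length and to the size of the library, and allele-specific expression (ASE) is the difference between D. simulans and D. melanogaster reads over their sum, so that 1 is D. simulans only and -1 is D. melanogaster only. Joint tables held FPKM for 12 of the 15 slices and ASE for 13 of them. In simXmel embryo 1 the FPKM of the region came from 1 slice, at 62.0%, whereas every other embryo had 2 or 3. The 12 slices with FPKM had 6188 to 6595 genes at 1 FPKM or more. The 13 slices with ASE had 683392 to 3299382 usable allele counts, and read totals behind FPKM are unknown. The slices are bulk samples, so that fewer expressing cells and less RNA per cell cannot be told apart.

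Of the markers of the anterior abdomen, Ubx was high in the region and kni was not higher than in the rest. Ubx (FBgn0003944, release 5 of the genome, 3R, bases 12482345 to 12560148) reached its highest slice inside the region in all 5 embryos, whereas kni did not. Against the rest of the embryo, kni (FBgn0001320, 3L, bases 20685430 to 20688478) was at 81.9 ± 51.1 FPKM (SD, n = 5) in the region and 90.6 ± 16.2 in the rest. The rest included the anterior kni domain, at 331 ± 64.5 FPKM in the first eighth of the embryo. The 6 posterior pole and pole cell genes summed to 13.5 to 24 FPKM per embryo in the region against 90.2 to 180 in the rest. Among them osk and nos did not separate, osk at 1.98 to 6.15 against 2.62 to 6.5 and nos at 0.173 to 0.49 against 0.278 to 11.2. Of the 3 anterior pole genes, orthodenticle (oc) was at most 0.055 FPKM against 6.84 to 11.9 in the rest, hkb was at 0.14 to 2.58 against 155 to 440, and bcd overlapped the rest, at 0.187 to 3.05 against 0.393 to 3.46. The posterior Hox gene Abdominal-B (Abd-B) was listed at 0 in every embryo but one, where it was at 0.02. Of the 2 thoracic markers, Antp was high, at 8.30 to 21.5 FPKM, and Scr was at 0.0 to 0.27 FPKM against 0.0578 to 0.388 in the rest.

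**Figure D1:**
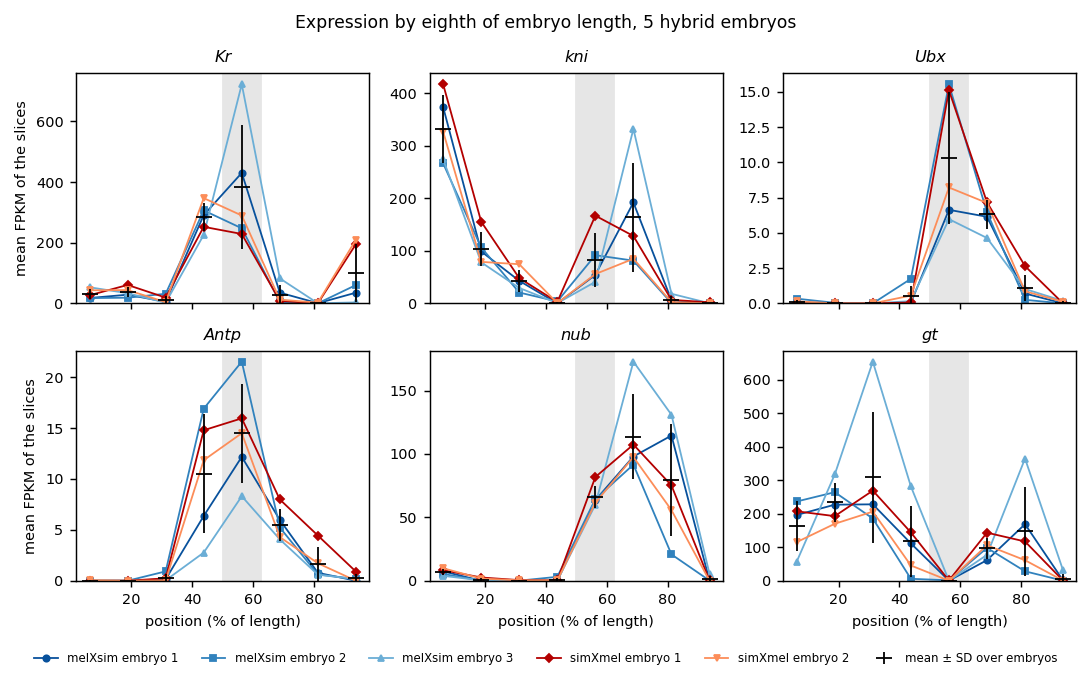
Mean FPKM of 6 genes in each eighth of the embryo length for the 5 hybrid embryos, with the mean and SD over embryos in black and the region shaded. Kr, Ubx and Antp had their highest mean in the shaded eighth, kni and nub rose there and went on rising in the next eighth, and gt had its lowest mean there (0.523 FPKM).

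Within the region the 3 slices of an embryo were not alike. Kr FPKM fell from the first to the last slice in all 5 embryos, from 577 to 233, from 413 to 81.9, from 904 to 542, from 652 to 229 and from 543 to 88.8, in the order melXsim embryos 1 to 3 and simXmel embryos 1 and 2. Over the same slices kni FPKM rose from 9.89 to 104, from 33.4 to 150, from 0.58 to 110, from 27.8 to 167 and from 17.1 to 112. In the last slice kni exceeded Kr in melXsim embryo 2 and simXmel embryo 2, and Kr was still the higher in the other 3 embryos. nub (nubbin, a POU factor) rose with kni, from between 2.83 and 41.7 FPKM in the first slices to between 81.8 and 140 in the last. Ubx had no common direction, and was higher in the last slice than in the first in 3 of the embryos and lower in melXsim embryo 2 and simXmel embryo 2. These slices include 3 that only the per-slice tables held, of which slice 15 of melXsim embryo 2 had 28004 usable allele counts and 4569 genes at 1 FPKM or more.

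**Figure D2:**
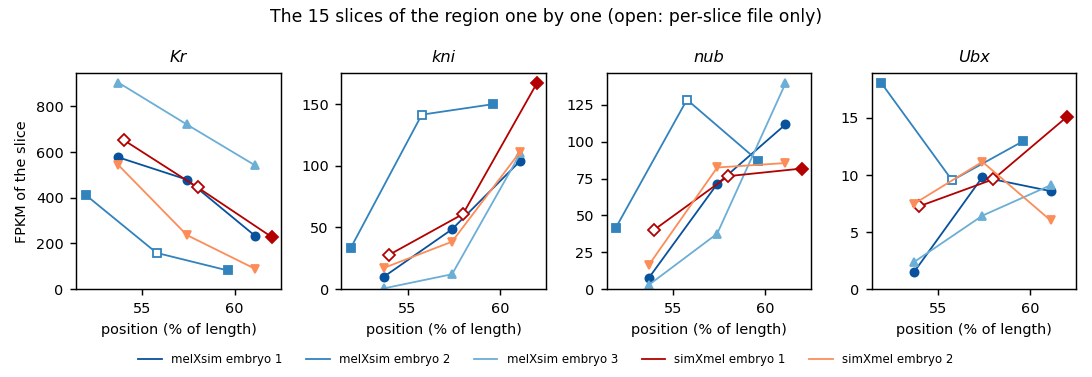
FPKM of Kr, kni, nub and Ubx in each of the 15 slices of the region, against position. Open symbols mark the 3 slices taken from per-slice tables. Kr fell and kni rose from the front to the back of the region in every embryo, whereas Ubx followed no common direction.

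At the anterior edge, the last slices before the region had Kr at 470 to 641 FPKM and kni at 0.0 to 5.97, and the first slices inside had Kr at 413 to 904 and kni at 0.58 to 33.4. At the posterior edge, kni was at 104 to 167 FPKM in the last slices inside and at 110 to 329 in the first slices after, while Kr went from between 81.9 and 542 to between 11.8 and 202. The edges were set by position, and neither band ended on them.

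Hox and gap genes led the genes that were higher in the region than in the rest of the same embryo. Across 6677 tested genes 78 were higher, a share of 1.17%, and 337 were lower, a share of 5.05%, which makes 6.22% in either direction (limma on log2(FPKM + 1) with embryo as a block, adjusted p below 0.05 over all tested genes). An unadjusted p below 0.05 was reached by 20.4%. The median difference over all tested genes was -0.08, so that the median gene was slightly lower in the region. The called differences had a median of 0.67 among the higher and -0.75 among the lower genes, on the log2 scale.

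Ubx FPKM in the region was 6.63, 15.5, 5.97, 15.1 and 8.22 against 0.778, 1.43, 0.787, 1.18 and 1.26 in the rest, in the embryo order given above. The lowest region value was above the highest value of the rest, and the log2 difference was 2.35 ± 0.17 (SE, adjusted p = 3.13e-06, higher in 5 of 5 embryos). Kr (FBgn0001325, 2R, bases 21114134 to 21118917) was at 430, 247, 722, 229 and 290 FPKM against 77.0, 58.3, 63.5, 87.4 and 98.5. It did not overlap either, with a log2 difference of 2.19 ± 0.23 (limma, adjusted p = 7.70e-05). Antp (FBgn0260642, 3R, bases 2721975 to 2824950), which specifies thoracic identity, was at 12.2, 21.5, 8.30, 15.9 and 14.5 FPKM against 2.11, 3.34, 1.12, 4.04 and 3.06. Its log2 difference was 2.06 ± 0.13 (limma, adjusted p = 1.17e-06), the smallest standard error of the 3.

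The next genes by size included tsg, pnr, tsh, nub and pdm2. tsg (twisted gastrulation, a secreted BMP-binding protein of the dorsal side) was at 308, 283, 208, 261 and 136 FPKM in the region and at 67.8, 65.3, 91.3, 45.4 and 27.4 in the rest. pnr (pannier, a GATA factor of the dorsal ectoderm) was at 6.72 ± 2.65 FPKM against 1.37 ± 1.24, and tsh (teashirt, a zinc finger protein that promotes trunk identity) at 14.9 ± 5.39 against 5.29 ± 1.95. Their log2 differences were 1.74 and 1.36, and one sign in 5 of 5 embryos was a condition for being named here. tsh had a higher mean in the eighth in front of the region, at 25.9 ± 10.6 FPKM. Its highest slice lay in front of the region in every embryo, at 46.0 to 50.0% of the length. Mean tsg was at 191 ± 78.0 FPKM in the eighth behind, beside 239 ± 68.3 in the region. Mean pnr was at 5.39 ± 5.96 FPKM in the eighth in front, where simXmel embryo 2 was above its region value (14.7 against 8.41). nub was at 63.5, 64.4, 60.0, 81.8 and 61.5 FPKM against 29.6, 19.8, 40.9, 25.0 and 25.2, and its neighbour and paralogue pdm2 was at 66.4 ± 31.9 against 26.5 ± 9.74. Both had higher means in the eighth behind, nub at 113.5 ± 33.6 and pdm2 at 73.4 ± 28.8 FPKM. Mean pdm2 was also higher in the first eighth of the embryo, at 73.6 ± 33.5 FPKM. How reads that fit both paralogues were divided between them was not tested. gk (geko), Mlp84B (a muscle LIM protein), CG13716 and CG5867 completed the 12 largest differences, at 1.23, 1.16, 1.98 and 1.15. Mean gk was higher in the eighth behind, at 243 ± 91.5 FPKM, than in the region, at 162 ± 39.9. In 7 of the 12 genes no region value overlapped a value of the rest, against 0.225% of all tested genes with every region value above. These 12 were picked as the largest increases, so that this contrast is a description and not a test. CG5867 rested on single embryos, and its adjusted p was 0.109 without melXsim embryo 2, 0.0528 without melXsim embryo 3 and 0.0641 without simXmel embryo 2.

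**Figure D3:**
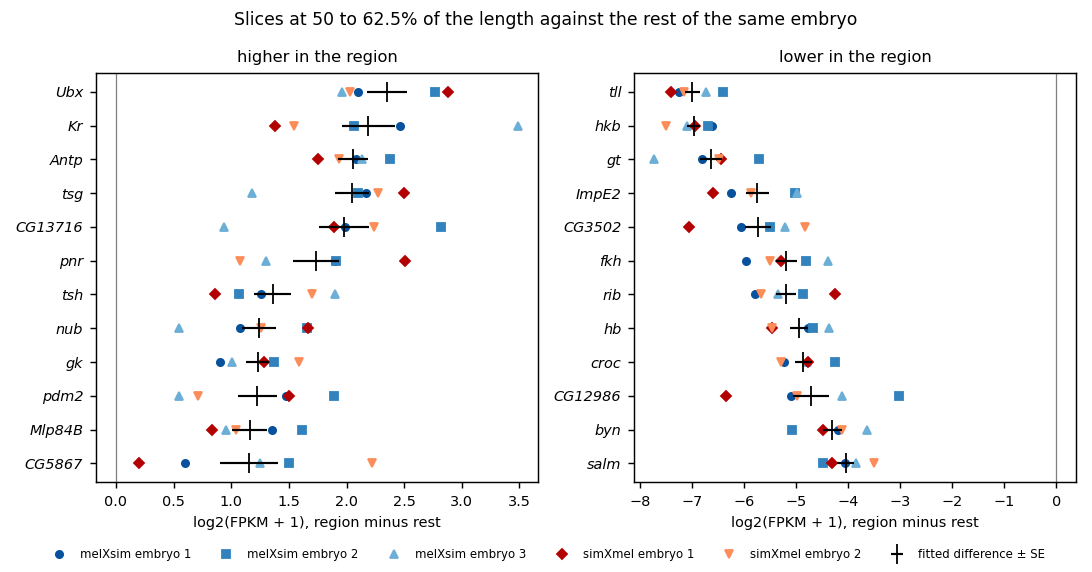
Difference in log2(FPKM + 1) between the region and the rest of the same embryo for the 12 genes with the largest increases and the 12 with the largest decreases. Symbols are single embryos and black bars the fitted difference with its SE. Ubx leads the left panel at 2.35 and tll the right panel at -7.0.

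The largest decreases were of tll, hkb and gt. tll (tailless, a nuclear receptor of the terminal system) was listed at 0 FPKM in 4 embryos and at 0.22 in melXsim embryo 3, against 152, 84.2, 128, 169 and 143 in the rest, a log2 difference of -7.0 ± 0.15 (limma, adjusted p = 5.33e-11). hkb (huckebein, a terminal zinc finger gene) was at 2.05, 0.97, 0.14, 2.58 and 0.723 FPKM against 299, 204, 155, 440 and 313. The gap gene gt was at 0.213, 1.34, 0.223, 0.72 and 0.12 FPKM against 136, 123, 259, 148 and 99.4, which makes the region the gap between its anterior and posterior bands. hb was at 1.26, 0.44, 3.69, 0.86 and 0.34 FPKM against 60.9, 35.7, 96.5, 80.6 and 57.8. The remaining 8 of the 12 were ImpE2, CG3502, rib (ribbon), CG12986, the forkhead factors fkh and croc, byn (brachyenteron, of the hindgut) and salm (spalt major), with differences of -4.04 to -5.75. All 12 were lower in 5 of 5 embryos, which the choice of these genes required. None overlapped the rest, against 1.68% of all tested genes with every region value below. These 12 were picked as the largest decreases, so that this contrast is a description and not a test.

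The share of higher among called genes was 18.8%, and it depended on how slices were averaged and scaled. It became 39.2% when each slice was scaled to the same median, with 142 genes higher and 220 lower, and 39.6% when log values were averaged over slices, with 122 and 186. Without melXsim embryo 2 the counts were 51 and 205, and without melXsim embryo 1 they were 54 and 208.

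Of the 7 trunk gap genes, 3 were higher (Kr, nub, pdm2), 3 were lower (hb, gt, knrl) and kni did not pass the test, with a median of -0.31, beside 1.17% higher and 5.05% lower among all tested genes. kni had a log2 difference of -0.31 ± 0.22 (limma, adjusted p = 0.446) and was higher than the rest in melXsim embryo 2 (91.7 against 70.7 FPKM) and simXmel embryo 1 (167 against 111) only. The value of simXmel embryo 1 is that of its last slice, and its other region slices, held by the per-slice tables alone, were at 27.8 and 60.9 FPKM, below the rest. Its direction turned with the averaging, to 1.44 (adjusted p = 0.0305) when log values were averaged over slices, and to 0.32 (adjusted p = 0.598) when the end eighths were left out of the rest. knrl (knirps-like, its neighbour 71.7 kb away) was at 2.26, 12, 1.43, 8.69 and 2.54 FPKM against 19.9, 22.3, 16.6, 24.3 and 27, and its call was lost (adjusted p = 0.5) when log values were averaged.

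Of the 8 Hox genes, 4 passed the filter of 1 FPKM on the mean. Antp and Ubx were higher, Deformed (Dfd, a head Hox gene) was lower at 0.641 ± 0.286 against 5.53 ± 2.68 FPKM, and abd-A did not pass the test, beside 1.17% higher and 5.05% lower among all tested genes. The difference of Dfd fell from -1.89 to -0.66 and was not called (adjusted p = 0.0827) when log values were averaged over slices, and it was not called without a filter (0.0696). Dfd passed the filter only through the rest, which fixed its direction. abd-A was at 0.477, 1.91, 0.69, 3.63 and 1.67 FPKM against 0.808, 1.02, 1.31, 2.03 and 2.64, and the region and the rest overlapped. The other 4, labial, proboscipedia, Sex combs reduced and Abd-B, had at most 0.27 FPKM in the region of any embryo.

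All 9 pair-rule genes were tested, and each is known for stripes or a band over the trunk. Of these, 3 were higher, 1 was lower and 5 did not pass, beside 1.17% higher and 5.05% lower among all tested genes. opa (odd-paired, expressed as a broad trunk band) was at 288, 180, 174, 329 and 211 FPKM against 155, 109, 102, 148 and 122, a log2 difference of 0.86 ± 0.08 (limma, adjusted p = 2.13e-05). eve (even-skipped) was at 251, 198, 281, 251 and 205 FPKM against 133, 172, 161, 185 and 107. The region lay wholly above the rest for both, but eve was not called when the end eighths were left out of the rest (0.28, adjusted p = 0.291, limma). Neither was called against the eighth in front or behind. Mean opa was at 244.5, 236.4 and 234.6 FPKM in front of, inside and behind the region, and mean eve at 230.7, 237.2 and 257.5. ftz (fushi tarazu) was at 229 ± 71.6 FPKM against 170 ± 51.4, and its adjusted p of 0.045 rose above 0.05 when any one of melXsim embryos 1 to 3 or simXmel embryo 2 was left out (0.0631 to 0.177), or the end eighths (0.432). slp2 (sloppy-paired 2) was lower, at 0.616 ± 0.608 against 6.21 ± 2.01 FPKM. It passed the filter on the mean only through the rest, which fixed its direction. The differences of h, run, odd and prd were 0.04, 0.34, 0.40 and 0.20 and that of slp1 was -1.09, with adjusted p-values of 0.0711 to 0.886. When log values were averaged over slices, h, run, odd and prd passed the test too, at 0.57, 1.82, 1.24 and 1.31. slp1 passed as lower without the end eighths (-1.50, adjusted p = 0.0287), with per-slice tables (-1.32, 0.0467) and without simXmel embryo 1 (-1.34, 0.0456). prd passed without melXsim embryo 3 (0.54, adjusted p = 0.0144, limma) and run without simXmel embryo 1 (0.48, adjusted p = 0.00501).

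Genes of other territories mostly fell or did not pass, beside a median of -0.08 over all tested genes and 1.17% of them higher and 5.05% lower. All 6 tested head genes were lower (median -3.28), among them ems at 0.658 ± 0.604 against 26 ± 8.50 FPKM. However, oc, ems, btd, croc and Optix had means below 1 FPKM in the region and passed the filter only through the rest. Their direction was thus fixed by the filter, as was that of tll, fkh, byn, nos, hh and gsb. Of the 6 terminal and gut genes, 5 were lower and the caudal homeobox gene cad was not called (13.2 ± 14.6 against 14.4 ± 8.80 FPKM). Of the 6 germ plasm and pole cell genes, 4 were lower, among them pgc (polar granule component) at 4.19 ± 3.09 against 34.4 ± 13.9 FPKM. Of 5 tested segment polarity genes, wg, hh and gsb were lower and none was higher, and wg (wingless, a Wnt ligand) was at 2.46 ± 0.981 against 26.3 ± 17.9 FPKM. Among the 3 tested Toll receptor genes, which are expressed in trunk stripes, 18w and Tollo were lower, at -1.2 and -1.98.

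Dorsoventral territories run along the whole axis, and their genes moved in both directions, beside 1.17% higher and 5.05% lower among all tested genes. Of the 10 dorsal ectoderm genes, zen (zerknullt, a homeobox gene of the dorsal midline) and pnr were higher, while dpp, tup, Doc1, Doc2, Doc3 and peb were lower. zen was at 80.7 ± 34.8 FPKM against 47.5 ± 22.8. Of the 7 tested neuroectoderm and midline genes, rho and D were higher and SoxN was lower. D (Dichaete, a Sox factor) was at 397 ± 221 FPKM against 229 ± 96.2. From the eighth behind, zen, rho, D and SoxN differed by -0.37, 0.02, -0.30 and -0.03, and none was called. Against the eighth in front, zen and D were called higher (0.67 and 0.98) and SoxN lower (-0.84), and rho was not called (0.16). Of 5 tested mesoderm genes only twi passed, with a difference of -0.48, from 234 ± 24.8 FPKM in the rest to 168 ± 23.8. hth (homothorax, a Hox cofactor) was higher at 155 ± 44.7 against 97.6 ± 24.7 FPKM. From the eighths in front and behind hth differed by only -0.05 and -0.01, and neither was called. Its partner exd was not called against the rest (0.18, adjusted p = 0.226, limma). The 3 housekeeping genes measured had differences of -0.01, -0.01 and 0.01.

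Library batches, as numbered in the study's list of sequencing indices, differed between embryos, and 2 embryos had region slices of batch 1 only. In the 7 sets of slices from the same embryo and batch that held region slices with FPKM, 21 of the 24 genes with the largest differences kept their direction in each set. The exceptions were all in the batch 3 slices of melXsim embryo 3, which had nub at -1.40, pdm2 at -0.55 and CG12986 at 0.0. Those batch 3 slices were the front and middle slices of the region, at 53.7 and 57.4%. The 24 genes had been picked for one sign in every embryo, and the sets are parts of the same slices. In simXmel embryo 1 the set held every slice with FPKM, so that it repeats the main values. The count is therefore not an independent check of batch.

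Of the 7 trunk gap genes, kni, knrl, nub and pdm2 were higher and hb and gt lower in the region than in the thoracic eighth in front of it (37.5 to 50% of the length). Of 6566 tested genes, 21 were higher in the region (0.32%) and 57 were lower (0.868%), 1.19% in all, while 8.35% had an unadjusted p below 0.05. nub was at 0.0, 3.09, 0.0425, 0.253 and 0.235 FPKM in front of the region, a log2 difference of 5.52 ± 0.26 (limma, adjusted p = 6.43e-07). kni was at 0.0525, 3.69, 0.472, 2.68 and 0.435 FPKM there, and the difference of 5.13 ± 0.19 (adjusted p = 1.51e-07, limma) had the smallest p of this comparison. pdm2 (4.87), Ubx (2.91) and knrl (2.14) followed, each with no overlap between region and neighbour. Ubx was at 0.03, 1.74, 0.158, 0.0633 and 0.552 FPKM in front of the region, highest in melXsim embryo 2. knrl rested partly on that embryo, with an adjusted p of 0.0515 without it.

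The largest decreases against the thoracic eighth were of gt, hb, salm, Dll (Distal-less, of the limb primordia) and CG7420. gt was at 112, 5.78, 282, 144 and 45.6 FPKM in front of the region, with melXsim embryo 2 far below the others, and its difference was -5.54 ± 0.66 (limma, adjusted p = 0.00163). hb was at 49.7, 18.9, 129, 94.2 and 54.1 FPKM there, salm at 28.4 ± 10.1 and Dll at 11.5 ± 7.88. In the region salm and Dll were at 0.143 ± 0.089 and 0.103 ± 0.115 FPKM. Kr was not called (0.31 ± 0.24, adjusted p = 0.779, limma), at 291, 306, 226, 252 and 347 FPKM in front. These values were above the region in 3 embryos, among them simXmel embryo 1, and below it in the others. The region value of simXmel embryo 1 is that of its last slice. Its other region slices, held by the per-slice tables alone, were at 652 and 445 FPKM. The last slice in front of them, also missing from the joint values, was at 610 FPKM. Antp was not called either (0.57 ± 0.17, adjusted p = 0.242, limma) although it was higher in 5 of 5 embryos. tsh had a mean of 25.9 ± 10.6 FPKM in front against 14.9 ± 5.39 in the region and was not called (-0.68 ± 0.19, adjusted p = 0.179, limma). No pair-rule gene of the 8 tested passed. Without melXsim embryos 1, 2 or 3 the number of lower genes was 27, 31 and 37.

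Against the next eighth behind (62.5 to 75% of the length), Kr was the only trunk gap gene of 7 that was higher in the region, and gt and nub were lower. Of 6561 tested genes, 13 were higher in the region (0.198%) and 25 were lower (0.381%), 0.579% in all, while 10.4% had an unadjusted p below 0.05. Kr was at 35.3, 4.54, 82.3, 8.08 and 12.3 FPKM behind the region, a log2 difference of 4.26 ± 0.26 (limma, adjusted p = 1.98e-05). tsh was at 13.4, 13.7, 10.3, 12.9 and 24.2 FPKM in the region and at 2.92, 1.04, 1.82, 4.32 and 3.88 behind it (2.10 ± 0.19). CG13716, Antp and pnr followed with differences of 1.94, 1.22 and 0.92. Antp lost the call without melXsim embryo 2 (adjusted p = 0.0953), CG13716 without melXsim embryo 1, melXsim embryo 2 or simXmel embryo 2 (0.0521, 0.138 and 0.060), and pnr without every embryo but melXsim embryo 3 (0.0856 to 0.223).

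The genes lower than behind included the posterior band of gt, at 61.6, 98.1, 77.3, 144 and 106 FPKM there (-6.01 ± 0.17, limma, adjusted p = 1.00e-08). abd-A was at 4.52, 5.36, 4.94, 12.7 and 13.2 FPKM behind the region, all above its region values, a difference of -1.76 ± 0.19 (limma, adjusted p = 0.00145). CG31275, which lies between Ubx and abd-A at 16.3 kb from the one and 55.9 kb from the other, was at 1.44, 7.01, 1.27, 6.54 and 1.2 FPKM in the region and at 13.9, 38.6, 23.9, 14.8 and 8.32 behind it. cas (castor, a zinc finger factor of neuroblasts) and CG43394 were lower by 1.85 and 1.79. Without melXsim embryo 2 cas and CG31275 were not called (0.0578 and 0.0977). kni was not called (-0.97 ± 0.39, adjusted p = 0.403), being lower in 3 embryos and higher in melXsim embryo 2 and in the single slice of simXmel embryo 1, whose other region slices were below the 128 FPKM behind. Ubx was at 6.14, 6.45, 4.64, 7.17 and 7.12 FPKM behind the region and was higher inside in 5 of 5 embryos, but its difference of 0.54 ± 0.18 did not pass (adjusted p = 0.281, limma). Without melXsim embryo 2 the counts were 3 higher and 8 lower genes. They were 6 and 13 without melXsim embryo 1, 7 and 13 without simXmel embryo 2, and 9 higher genes were called without simXmel embryo 1.

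**Figure D4:**
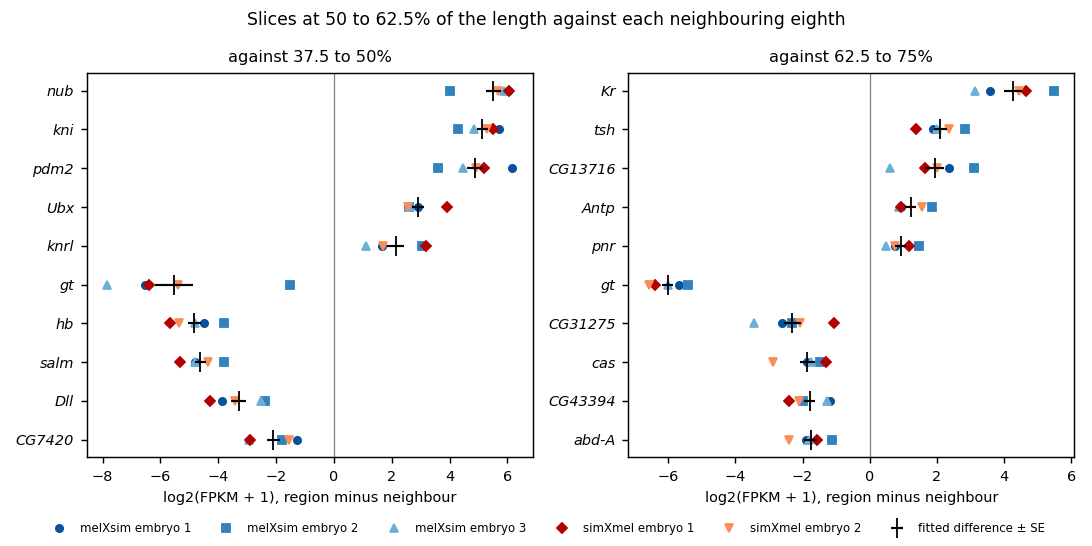
Difference in log2(FPKM + 1) between the region and the eighth in front of it (left) or behind it (right), for the genes with the 5 largest increases and decreases of each. Symbols are single embryos and black bars the fitted difference with its SE. kni, nub and pdm2 exceed 4.8 on the left and Kr leads on the right at 4.26, while gt is below -5.5 in both.

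The comparisons with the neighbours share the region slices, so that their calls are not independent. gt, CG43394, Nek2 and RhoGEF3 were lower than both neighbours, and CG13716 was higher than both. nub, gk and CG31275 were higher than in front and lower than behind, although nub against the eighth behind (adjusted p = 0.041) was not called without melXsim embryo 1, melXsim embryo 2 or simXmel embryo 2 (0.099, 0.223 and 0.119), with per-slice tables (0.115) or with log values averaged (0.131). CG15628 had the opposite order. Nek2, RhoGEF3 and CG15628 are named here because these counts are small, and were picked after their values were seen.

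The profile most like that of Ubx, over the means of 24 position bins and among 6721 genes, was that of CG1324 (Pearson r = 0.923), followed by tsg (0.864), Cda5 (0.863), Mlp84B (0.855) and Glut4EF (0.836). For kni it was knrl (0.915), followed by blanks, CG18012, CG34396 and Elba2 (0.770 to 0.735). The bins share embryos and libraries, and these coefficients are a description.

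The single embryos of the parental strains are given beside the hybrids, without a test. Of the 24 genes with the largest differences, 23 had the direction of the hybrids in melXmel and 23 in simXsim. The exception in melXmel was CG13716, at 1.12 FPKM in the region and 1.27 in the rest. In simXsim it was Kr, at 105 FPKM in the region and 154 in the rest, whereas Kr was at 667 against 80.4 in melXmel. The simXsim region also had more abd-A (9.88 against 0.27 FPKM) and knrl (21.7 against 2.45) than the melXmel region. Ubx was alike in both, at 10.6 FPKM in melXmel and 14.5 in simXsim, with 1.34 and 1.58 in the rest.

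The direction of the cross changed the difference between region and rest in few genes. Of 6677 genes, 4 passed the test of the interaction, a share of 0.0599%. In 1 of them the difference was more positive in simXmel (0.015%) and in 3 it was more negative (0.0449%), and 6.53% had an unadjusted p below 0.05. Hsp83, a chaperone whose maternal transcripts are known to be cleared from the body of the embryo and kept at the posterior pole, was at 566, 472 and 418 FPKM in the region of the melXsim embryos and at 46.3 and 22.1 in simXmel. The rest was at 828, 654 and 636 FPKM in melXsim and 317 and 180 in simXmel. The drop was thus larger with a D. simulans mother, by -2.32 ± 0.15 on the log2 scale (limma, adjusted p = 0.000147). The parental embryos had 329 against 517 FPKM in melXmel and 39.2 against 247 in simXsim. The other 3 genes were exu (exuperantia, needed to localise bicoid RNA in the oocyte, -2.29), CG11905 (-2.64) and CG33713 (2.61). CG11905 was at 0.0 to 0.39 FPKM in the region, near the floor, and at 1.91 to 3.73 in the melXsim rest and 20.6 to 22.1 in simXmel. Its interaction thus follows the level of the rest. exu was also near the floor in the simXmel regions, at 0.0 and 0.14 FPKM. With per-slice tables, which hold all 3 region slices of simXmel embryo 1, CG33713 was at 1.36 and not called (adjusted p = 0.547, limma). Hsp83 was called when any single embryo was left out. Without melXsim embryo 1, melXsim embryo 3 or simXmel embryo 1 it was the only gene called, and without melXsim embryo 2 CG33713 was called too. Without simXmel embryo 2 the number of called genes rose to 37, with simXmel embryo 1 and its single region slice then standing alone for that cross.

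ASE was compared between the region and the rest for 3973 autosomal genes, to ask whether the allelic balance in these slices differed from that of the same embryo elsewhere. With the difference coded by species, no gene passed an adjusted p of 0.05 (0 called, 0.0%, limma). At an unadjusted p below 0.05 there were 471 genes (11.9%), 253 toward D. simulans and 218 toward D. melanogaster, and alternative measures of ASE called up to 2 genes. The smallest adjusted p was 0.0604, for CG13868 (difference 0.27). The genes described next are those with the largest differences of one sign in 5 of 5 embryos, and were picked after their values were seen.

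srw (shrew, a gene of dorsal patterning, 3L, bases 4282956 to 4283478) had an ASE of 0.25, 0.368, 0.148, 0.449 and 0.209 in the region and of -0.358, -0.319, -0.418, 0.0937 and -0.293 in the rest. The region was toward D. simulans in every embryo and did not overlap the rest. Its difference of 0.52 ± 0.03 had an adjusted p of 0.0836 over the 3973 tested genes (limma). Recomputed from allele counts, the difference was 0.47 with an adjusted p of 0.00471 (limma), over only 1322 tested genes, so that these adjusted values are not alike. srw had 160 to 544 allele counts per embryo in the region and 651 to 1705 in the rest. Along the axis the mean ASE of srw went from -0.643 ± 0.121 in the first eighth through 0.285 ± 0.122 in the region to -0.532 ± 0.241 in the last eighth. In the adjoining eighths the mean of srw was also positive, at 0.138 ± 0.219 in front and 0.0515 ± 0.187 behind. In simXmel embryo 1 the eighth in front, at 0.490, was above the region. The FPKM of srw was also higher in the region, at 78.9 ± 12.3 against 41.9 ± 11.6 in the rest.

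sprt (2R, bases 7272248 to 7284937) was at 0.445, 0.604, 0.426, 0.387 and 0.386 in the region against -0.0403, 0.0678, -0.108, 0.172 and 0.00581 in the rest. Its ASE stayed toward D. simulans behind the region (0.498 ± 0.168 and 0.41 ± 0.087 in the next eighths) and its mean was negative in each eighth in front of 37.5%. mfas (midline fasciclin, a cell adhesion protein) was at 0.195, 0.0774, 0.445, 0.372 and 0.618 in the region and at -0.246, -0.23, 0.138, -0.0968 and 0.233 in the rest, higher in the region of each embryo although the groups overlapped. In the eighth behind, mfas was at 0.369 ± 0.235, beside 0.342 ± 0.212 in the region. sprt and mfas both had an adjusted p of 0.0836 (limma).

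gk and Kr were shifted the other way, toward D. melanogaster. gk (3L, bases 18132502 to 18138518) was at -0.469, -0.581, -0.558, -0.527 and -0.697 in the region and at 0.124, -0.162, -0.0917, -0.0898 and -0.321 in the rest, a difference of -0.45 ± 0.03 (limma, adjusted p = 0.0836). gk FPKM was at the same time higher in the region. In the parental embryos gk was at 323 FPKM in the region and 171.5 in the rest of melXmel, and at 57.3 and 12.3 in simXsim. The log2 difference between region and rest was smaller in melXmel (0.91) than in simXsim (2.13). Kr had an ASE of -0.238, -0.282, -0.133, -0.312 and -0.238 in the region and of 0.0967, -0.0558, 0.073, 0.0208 and 0.0326 in the rest, which did not overlap (-0.28 ± 0.03, limma, adjusted p = 0.0876). The shift was shared by the eighth in front, at -0.153 ± 0.054, where Kr was also highly expressed, and by the eighth behind, at -0.232 ± 0.197. gk was toward D. melanogaster in these eighths too, at -0.427 ± 0.201 in front and -0.290 ± 0.081 behind, beside -0.566 ± 0.084 in the region.

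For kni, eve and Ubx the ASE of the region was closer to 0 than that of Kr in each embryo. kni was at -0.133, -0.0736, -0.0695, -0.139 and -0.113, below the rest in 5 of 5 embryos (-0.06 ± 0.02), and eve at -0.0889, 0.0268, -0.0872, -0.081 and -0.0498. Ubx was at 0.0226, -0.0458, 0.0725, -0.129 and 0.106, with both alleles read in every embryo. Their adjusted p-values against the rest were 0.329, 0.279 and 0.48 (limma). hb and gt were not tested, since gt is X-linked and hb had too few slices with ASE in the region. The remaining genes among the largest differences were Pepck, bowl and Myt1 toward D. simulans (0.47, 0.31 and 0.28) and CG5002, Mipp1, GstE14, zfh2 and Sec15 toward D. melanogaster (-0.43, -0.34, -0.32, -0.31 and -0.28). In bowl, Pepck and CG5002 the FPKM of the region was below that of the rest, at 2.37 against 9.08, 5.83 against 65.3 and 3.80 against 10.7.

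**Figure D5:**
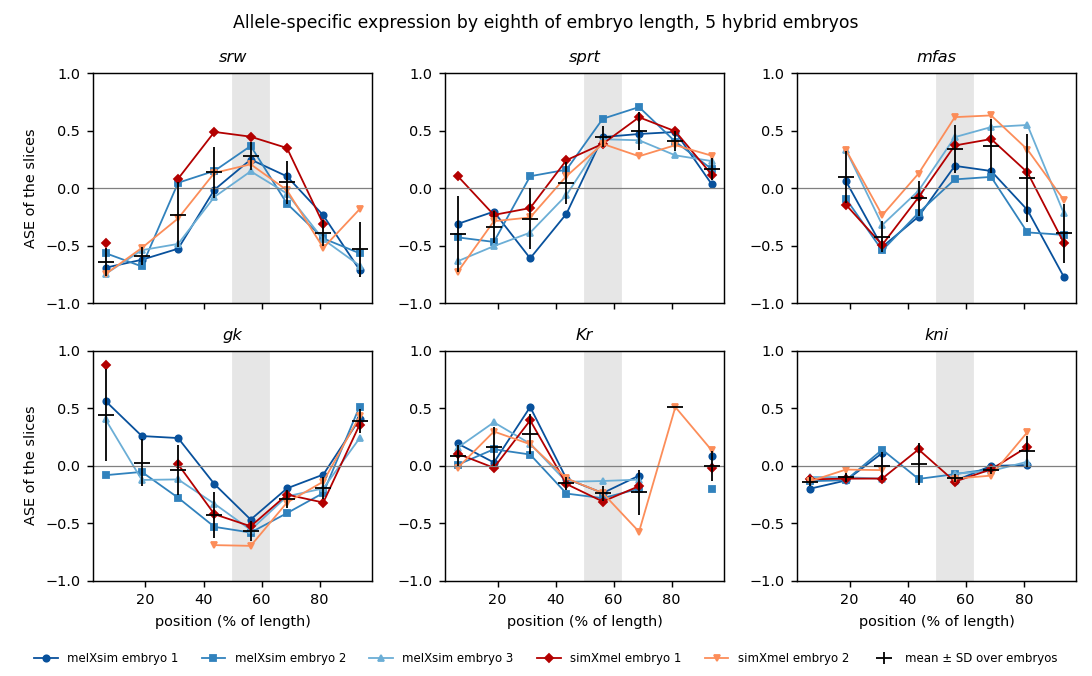
ASE of 6 genes in each eighth of the embryo length for the 5 hybrid embryos, with the mean and SD over embryos in black and the region shaded. ASE runs from -1 (D. melanogaster only) to 1 (D. simulans only), and a missing point is an eighth without ASE in that embryo. srw has its highest and gk its lowest mean in the shaded eighth. gk and Kr are negative in the 3 eighths from 37.5 to 75%, and kni stays near 0 in the region.

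With ASE coded by parent, so that a positive difference is more maternal in the region, no gene passed either (0 called, 0.0%, limma). At an unadjusted p below 0.05 there were 635 genes (16%), 544 of them more maternal in the region and 91 less, and alternative measures called up to 2. The shift was small and general, with 74.0% of genes above 0. Its median over genes was 0.0186, 0.0137, 0.0136, 0.0176 and 0.0202 in the 5 embryos. All 5 were positive. Flipping their signs in every possible way, an exact permutation test, gave a 2-sided p of 0.0625 (n = 5), the smallest that 5 embryos allow. Hsp83 had the smallest adjusted p (0.0944, limma), with an ASE of -0.969, -0.941 and -0.984 in the melXsim region against -0.722, -0.685 and -0.752 in the rest, and of 0.81 and 0.848 against 0.589 and 0.67 in simXmel. Its transcripts were thus more purely maternal in the region than elsewhere, by 0.22 ± 0.01, where their FPKM was also lower. The other large differences of one sign were picked after their values were seen. More maternal in the region were ex, DNApol-epsilon, yem, CG31915 and enc (0.39 to 0.21). Less maternal in the region were abd-A, kon, ced-6, Hsp27, aay and sds22 (-0.28 to -0.14).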

How the data were processed

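The authors mapped reads with STAR 2.4.2a to a D. melanogaster genome (release 5) masked at sites that differ between the species, and left out slices with few reads or poor mapping. FPKM values were computed by the authors with Cufflinks 2.2.1 and deposited as a joint table and per slice. ASE scores were deposited by the authors after allele filtering, and the allele counts per gene are as deposited for each slice. FPKM keep no read totals, so their depth is unknown, and 27 columns of the joint tables were not used because they hold no values of a sample.

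Values were averaged over the slices of a group within each embryo, transformed as log2(FPKM + 1) where FPKM, and compared with limma 3.58.1 in R 4.3.3 with embryo as a block, since region and rest are slices of the same embryo. Genes needed a mean FPKM of at least 1 over region and comparison group. A gene below that level on one side thus entered through the other side, which fixed the direction of its difference. A fold change on this scale understates the change of low genes. ASE genes were autosomal with at least 1 region slice and 3 other slices in each embryo, and both directions of the cross were weighted equally. p-values were adjusted by the Benjamini-Hochberg method over all tested genes. Allele counts were used for depth and for 1 alternative, in the 3005 genes where they could be summed, of which 1322 had enough counts to be tested.

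Genes named are the 12 highest and 12 lowest (5 and 5 for each neighbour) among called genes of one sign in 5 embryos, and the gap, Hox and pair-rule lists. No ASE gene was called, so that ASE genes were picked by size among those of one sign. The members and lists were chosen with earlier results of these data known. Labels name separate embryos as replicates. Alternatives changed the pseudocount, the filter, the averaging, the scaling, the slices, the block and the embryos.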

Additional observations from a re-analysis of the deposited data

Results flagged for a closer look

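In 114 groups of 5 embryos checked, 6 had an embryo far from the others by Dixon's criterion, which chance gives in about 1 of 20. Against the thoracic eighth, the difference of nub was 4.0 in melXsim embryo 2 and 5.66 to 6.05 in the others, and that of Ubx was 3.92 in simXmel embryo 1 and 2.57 to 2.89 in the others. The Ubx value of simXmel embryo 1 rests on its last region slice, at 15.1 FPKM. Its other region slices, held by the per-slice tables alone, were at 7.27 and 9.63 FPKM. The last slice in front, at 1.40 FPKM, was missing from the joint values too. Against the eighth behind, nub was at -1.51 in melXsim embryo 3 and at -0.66 to -0.39 in the others. These are log2 differences.

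In the ASE coded by parent, ex differed by 0.87 in melXsim embryo 1 and by 0.24 to 0.34 in the others, enc by 0.63 in simXmel embryo 2 and by 0.01 to 0.16 in the others, and sds22 by -0.30 in melXsim embryo 3 and by -0.13 to -0.09 in the others. The region of ex had 84 to 386 allele counts per embryo.

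The difference between region and rest itself differed between the directions of the cross (simXmel minus melXsim, interaction term in limma) in Hsp83 (-2.32, adjusted p = 0.000147), CG11905 (-2.64, 0.0192), CG33713 (2.61, 0.0192) and exu (-2.29, 0.0349). Of these, exu was not called without the ends of the embryo (-0.58, adjusted p = 0.838), and it was not called when any of melXsim embryos 1 to 3 or simXmel embryo 1 was left out (0.17 to 0.255).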

How the results depend on the processing

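Counts of higher and lower genes against the rest moved from 78 and 337 to 39 and 182 without a filter, 122 and 186 with log values averaged over slices, 142 and 220 with slices scaled to the same median, and 45 and 173 with the end eighths left out of the rest. Against the thoracic eighth, 21 and 57 became 8 and 6 without a filter. Against the eighth behind, 13 and 25 became 8 and 14 with a pseudocount of 0.1 and 1 and 4 without a filter. Leaving out 1 embryo gave 51 to 76 and 205 to 275 genes against the rest, 15 to 22 and 27 to 46 against the thoracic eighth, and 3 to 11 and 8 to 22 against the eighth behind.

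Samples were paired by embryo. Without the block the counts were 6 and 74 against the rest, 4 and 4 against the thoracic eighth and 0 and 1 against the eighth behind.

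For the direction of the cross, 1 and 3 genes became 0 and 1 with a pseudocount of 0.1 or with log values averaged, 0 and 0 without a filter and 5 lower genes with a pseudocount of 10. Without 1 embryo they were 0 to 3 and 1 to 34. ASE by species called 1 gene with at least 2 region slices (CG13868), 1 in each direction as a log2 ratio (srw, gk), 1 from medians (sprt) and 2 from allele counts (srw, CG3609). ASE by parent called 1 gene as a log2 ratio (Tl) and 2 from allele counts (Hsp83, CG3609). Without any 1 embryo no ASE gene was called.

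kni against the rest turned from -0.31 to 1.44 with log values averaged. In the batch 3 slices of melXsim embryo 3, nub was at -1.40, pdm2 at -0.55 and CG12986 at 0.0, in a comparison chosen after seeing the data. The causes were not tested.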
